A study of Mus musculus with 14 samples.

Results

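Interleukin 6 (IL-6) and its relatives are secreted cytokines that share a signalling receptor chain, gp130, the product of Il6st. The 6 genes described here are the ligand genes Il6 and Lif, the ligand-binding receptor genes Il6ra, Osmr and Lifr, and Il6st, taken by gene symbol to describe which marrow stromal cells hold Il6 RNA and which cells hold receptor RNA. All 6 were found among the 50600 genes of the bulk table and among the 32285 genes of each stromal table. The blood progenitors' table held 11992 genes, among them Il6, Il6ra, Il6st and Lifr; Lif and Osmr were not analysed there.

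IL-6 binds the IL-6 receptor (Il6ra) and then gp130, whereas leukaemia inhibitory factor (Lif) uses the LIF receptor (Lifr) with gp130, and mouse oncostatin M mainly uses its own receptor (Osmr) with gp130. Binding activates JAK kinases and the transcription factor STAT3, which induces the feedback inhibitor Socs3. In bone marrow, mesenchymal cells are a known source of IL-6, and IL-6 acts on blood progenitors. Cells without the membrane-bound IL-6 receptor can still respond to IL-6 carried by a shed form of it.

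Mesenchymal stem cells (MSC) from marrow were profiled in bulk in 4 libraries from mice bearing Py230 tumours and 4 from tumour-free mice. Py230 is a mammary tumour line derived from a mouse in which the polyoma middle T oncogene (PyMT) drives mammary tumours. Single marrow stromal cells were sequenced in 1 library from PyMT and 1 from wild-type (WT) mice, and hematopoietic stem and progenitor cells (HSPC) in 2 libraries from PyMT and 2 from WT mice. The labels state neither ages nor sort gates, and they do not say whether a library holds 1 animal or several, so a p-value here reflects the scatter of the libraries, some of which may be technical. The HSPC were grouped by their genotype label, which gives WT for 2 libraries although all 4 titles begin with PyMT.

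Bulk libraries held 4301375 to 9811251 counted reads, and genes with a read ranged from 21009, in Py230 library 3, to 36678. The stromal tables gave 3191 kept PyMT cells and 2190 kept WT cells, at medians of 4471 and 4176 unique molecular identifiers (UMIs, each counting 1 captured RNA molecule). The HSPC table held 3602 and 5608 cells of the PyMT mice and 3422 and 2210 cells of the WT mice. The stromal libraries shared 2 cell barcodes, and pairs of HSPC libraries shared 8 to 23. In bulk, markers of LepR+ mesenchymal cells, the cell type that fits the MSC label, were abundant in both groups. They summed to 18186 ± 1395 CPM (counts scaled to a common library total) in Py230 and 30545 ± 995 CPM in tumour-free libraries (SD, n = 4 each; two-sided exact permutation p = 0.0286, the smallest that 35 splits allow). Macrophage and monocyte markers, 9 of 9 in the table and none at 0 throughout, summed to 74.2 to 114 CPM in Py230 and 51.2 to 65.8 CPM in tumour-free libraries (exact permutation p = 0.0286). Cartilage markers summed to 80.6 to 176 CPM in Py230 and 190.1 to 239 CPM in tumour-free libraries (exact permutation p = 0.0286). For tendon-like markers (173 ± 107 CPM in Py230 and 37.8 ± 30.1 CPM in tumour-free libraries) and sinusoidal endothelial markers (65.3 ± 23.4 CPM in Py230 and 32.7 ± 6.80 CPM in tumour-free libraries) the exact permutation p was 0.0571. Without Prg4, the tendon-like sums were 52.9 ± 42.6 CPM in Py230 and 19.9 ± 9.26 CPM in tumour-free libraries (exact permutation p = 0.257). The other marker lists tested had larger p-values, and none of these was adjusted for the number of lists. The part of these marker differences in the bulk results below was not tested. In bulk, fewer cells of a type and less RNA per cell cannot be told apart.

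Il6, the gene of the cytokine itself, lies at chr5:30013114-30019981 on the plus strand (GRCm38). Its level was 91.4, 94.1, 77.0 and 107 normalised CPM in Py230 libraries 1 to 4, and 88.5, 90.0, 174 and 152 CPM in tumour-free libraries 1 to 4. The ranges overlapped, since tumour-free libraries 1 and 2 lay among the Py230 libraries and libraries 3 and 4 above them all. The log2 difference of -0.46 (SE 0.22) did not pass edgeR's quasi-likelihood test after Benjamini-Hochberg adjustment over all genes (adjusted p = 0.348). Without the filter on low counts the same test called it lower (-0.54, edgeR adjusted p = 0.0161).

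Lif (chr11:4257557-4272514, plus strand), the other ligand gene, was at 17.7, 19.8, 15.6 and 20.6 CPM in Py230 libraries 1 to 4, and at 9.09, 13.1, 14.3 and 11.8 CPM in tumour-free libraries 1 to 4. The ranges did not overlap, which held for 11% of the 16317 genes tested. The log2 difference of 0.61 (SE 0.18) missed the threshold of 0.05 (edgeR adjusted p = 0.0762).

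Osmr (chr15:6813577-6874969, minus strand), the oncostatin M receptor, was the 1 gene of the 6 that passed the test. It was at 664, 575, 525 and 499 CPM in Py230 libraries 1 to 4, and at 241, 291, 301 and 338 CPM in tumour-free libraries 1 to 4. Every Py230 library lay above every tumour-free library. The log2 difference was 0.95 (SE 0.12, edgeR adjusted p = 7.64e-04), and it kept its call in 12 of 12 alternative analyses, with differences of 0.84 to 1.03. Over all genes 4.73% were called, 1.99% higher and 2.74% lower, beside 1 higher and 0 lower of the 6 family genes. The median log2 difference was 0.47 over the 6 genes and 0.04 over all genes.

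Lifr (chr15:7090614-7197489, plus strand), the LIF receptor, was at 1803, 2532, 2334 and 2202 CPM in Py230 libraries 1 to 4, and at 1976, 1749, 1707 and 1570 CPM in tumour-free libraries 1 to 4. Py230 library 1 lay inside the tumour-free range and the other libraries above it, and the log2 difference of 0.34 (SE 0.12) was not called (edgeR adjusted p = 0.159). Il6st (chr13:112464070-112510086, plus strand), the gp130 gene, was at 507, 524, 541 and 532 CPM in Py230 libraries 1 to 4, and at 512, 508, 551 and 502 CPM in tumour-free libraries 1 to 4. These ranges overlapped almost wholly, and the log2 difference of 0.02 (SE 0.09, edgeR adjusted p = 0.946) changed sign in 5 of 12 alternatives.

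Il6ra (chr3:89864059-89913196, minus strand), whose product binds IL-6, rested on 15 to 50 reads in Py230 and 19 to 26 reads in tumour-free libraries. It was at 10.8, 1.86, 2.21 and 4.53 CPM in Py230 libraries 1 to 4, and at 3.38, 3.16, 3.03 and 2.76 CPM in tumour-free libraries 1 to 4. The Py230 libraries lay on both sides of the tumour-free range, and the log2 difference of 0.61 (SE 0.51, edgeR adjusted p = 0.651) was -0.15 without Py230 library 1.

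Levels of different genes were compared as CPM per kilobase of exon. Lifr was highest, at a mean of 206 in Py230 and 162 in tumour-free libraries. Il6st (47.4 in Py230, 46.7 in tumour-free), Osmr (46.7 in Py230, 24.2 in tumour-free) and Il6 (38.0 ± 5.02 in Py230, 52.0 ± 18.0 in tumour-free; SD, n = 4 each) followed. In Py230 libraries Osmr (SD 5.98) differed beyond the spread neither from Il6st nor from Il6. In tumour-free libraries Il6 and Il6st did not differ beyond their spread. Lif was at 4.24 ± 0.521 in Py230 and 2.77 ± 0.513 in tumour-free libraries. Il6ra was lowest, at 0.561 in Py230 and 0.357 in tumour-free libraries.

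**Figure D1:**
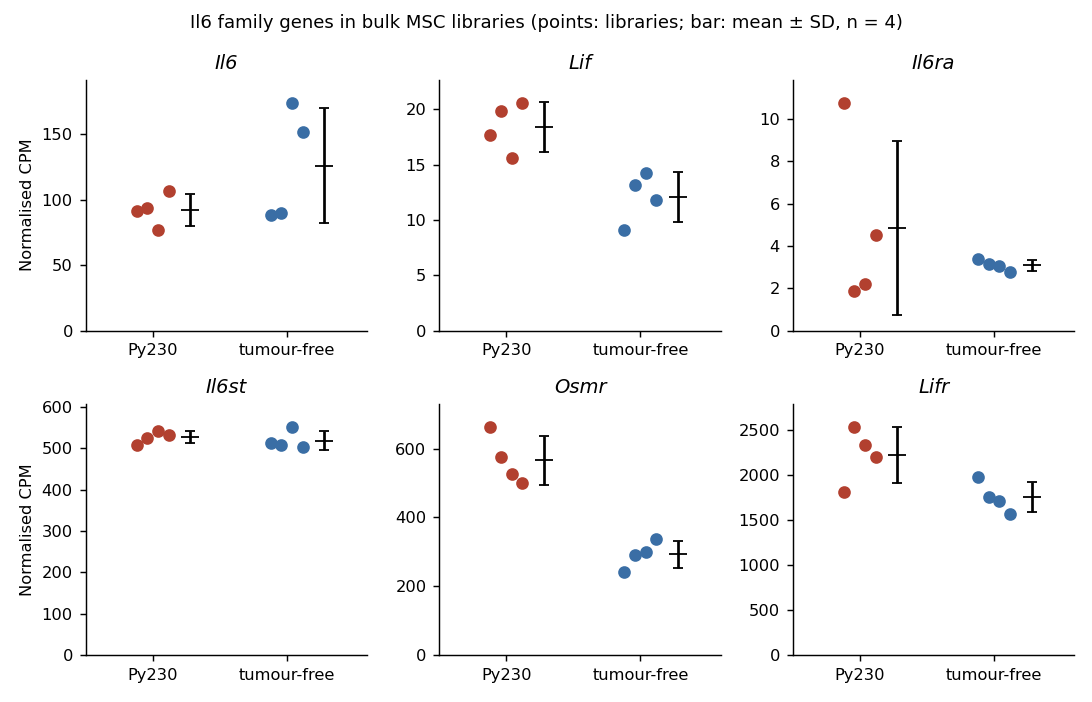
Normalised CPM (vertical axes, each starting at 0) of the 6 genes in bulk MSC, Py230 left of tumour-free; points are libraries and bars the mean ± SD of 4. The groups are apart for Osmr (499 to 664 CPM in Py230 and 241 to 338 CPM in tumour-free libraries) and for Lif, and overlap for the other genes.

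The promoters of Il6 and Osmr are printed because these are the ligand and the receptor gene that the stromal results turn on, and because both were set against immediate-early genes, some of which encode subunits of the AP-1 factor. Each window runs from 250 bases before to 50 bases after the RefSeq start site (GRCm38.p6), chr5:30012864-30013163 on the plus strand for Il6 and chr15:6874264-6874563 on the minus strand for Osmr. Capitals mark motif matches.
Il6: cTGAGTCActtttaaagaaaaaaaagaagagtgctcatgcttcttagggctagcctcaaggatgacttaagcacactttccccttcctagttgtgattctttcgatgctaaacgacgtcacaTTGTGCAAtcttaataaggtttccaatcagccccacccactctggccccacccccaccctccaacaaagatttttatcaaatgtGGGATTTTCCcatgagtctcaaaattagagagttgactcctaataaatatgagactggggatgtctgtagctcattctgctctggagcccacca
Osmr: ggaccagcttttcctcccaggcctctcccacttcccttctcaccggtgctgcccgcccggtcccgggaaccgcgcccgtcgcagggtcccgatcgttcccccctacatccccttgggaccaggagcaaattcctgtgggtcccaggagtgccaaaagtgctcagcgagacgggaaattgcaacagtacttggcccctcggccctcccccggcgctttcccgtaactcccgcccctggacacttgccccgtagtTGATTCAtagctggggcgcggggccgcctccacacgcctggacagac

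The letters searched, on both strands, were TGANTCA for AP-1, TGACGTCA for the cyclic AMP response element, GGGNN followed directly by TTTCC for NF-kB, TTGCNNAA for C/EBP and TTCNNNGAA for STAT factors. The Il6 window held an AP-1 match (TGAGTCA, bases -249 to -243 from the start site), a C/EBP match on the other strand (TTGTGCAA, -128 to -121) and an NF-kB match (GGGATTTTCC, -44 to -35), none of which overlapped. The Osmr window held an AP-1 match (TGATTCA, bases 3 to 9), and the Lif window an AP-1 match at -228 to -222. None of these letters was found in the windows of Il6ra, Il6st and Lifr. Of 32851 RefSeq promoters of this length, 7.81% held the AP-1 letters, 1.79% the cyclic AMP letters, 1.63% the NF-kB letters, 10.8% the C/EBP letters and 8.30% the STAT letters. A match is a description of the letters only.

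The stromal tables show which cells held these RNAs. The authors' clusters carry numbers only and were named from marker genes. Cluster 0 was LepR+ mesenchymal-like (2242 PyMT and 977 WT cells), cluster 1 tendon-like (367 and 441), cluster 2 fibroblast-like (346 and 559), cluster 3 sinusoidal endothelial-like (120 and 55), cluster 4 capillary endothelial-like (61 and 95) and cluster 5 osteolineage-like (55 and 63). Cluster 5 was led by the bone gene Bglap, but its leading genes also held the cartilage gene Col2a1. Cartilage markers summed there to 450 CPM in PyMT and 1631 CPM in WT, beside osteolineage markers at 172627 CPM in PyMT and 174213 CPM in WT. The part of this make-up in the levels of cluster 5 was not tested. Levels below are CPM of the UMIs summed over the cells of a cluster in 1 library. With 1 library per genotype there was no test, and the differences have no replicate check. The 95% intervals, Poisson for levels and their ratios and Clopper-Pearson for shares of cells, cover counting error only. Where a count was 0, the limit given is instead 3 counts of the total, over the cluster's UMIs for a level and over its cells for a share.

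Il6 RNA lay mainly in LepR+-like and fibroblast-like cells and was higher in the PyMT library in both. In LepR+-like cells it was at 149 CPM in PyMT (1560 UMIs, interval 142 to 157) and 27.5 CPM in WT (102 UMIs, 22.5 to 33.4), a log2 ratio of 2.44 (2.15 to 2.74). In fibroblast-like cells it was at 208 CPM in PyMT (432 UMIs, 189 to 229) and 31.9 CPM in WT (105 UMIs, 26.1 to 38.6), a log2 ratio of 2.71 (2.40 to 3.03). By counting error alone the fibroblast-like level was the higher of the 2 in PyMT, and the intervals overlapped in WT. The PyMT fibroblast-like level rests on few cells, as given below. LepR+-like cells were 70.3% of PyMT and 44.6% of WT cells and held 76.6% of the Il6 UMIs in PyMT and 46.4% in WT. Fibroblast-like cells were 10.8% of PyMT and 25.5% of WT cells and held 21.2% of the Il6 UMIs in PyMT and 47.7% in WT.

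The other clusters held few Il6 UMIs. Tendon-like cells had 15.6 CPM in PyMT and 5.95 CPM in WT (log2 ratio 1.39, 0.40 to 2.46). Sinusoidal endothelial-like cells had 26.5 CPM in PyMT (12 UMIs, interval 13.7 to 46.2) and 0 UMIs in WT, which allows up to 17.8 CPM. Capillary endothelial-like cells had 39.6 CPM in PyMT (4 UMIs, 10.8 to 101) and 0 UMIs in WT, which allows up to 25.7 CPM. In PyMT both endothelial-like levels were thus above the tendon-like level, though the intervals overlapped, and below those of LepR+-like and fibroblast-like cells. Both endothelial-like clusters also held RNA of LepR+ markers, given below, and the part of such RNA in these levels was not tested. Osteolineage-like cells had 0 UMIs in 55 PyMT cells and in 63 WT cells, where 3 counts are 5.45% of the PyMT and 4.76% of the WT cells, although these cells were deeper (medians of 9662 UMIs in PyMT and 11233 in WT) than LepR+-like cells (4421.5 in PyMT and 3591 in WT).

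A minority of cells carried Il6. A UMI was found in 13.5% of LepR+-like cells in PyMT (12.1 to 15.0) and 3.89% in WT (2.77 to 5.30), and in 19.1% of fibroblast-like cells in PyMT and 8.05% in WT. With cells thinned to 1500 UMIs, the LepR+-like shares were 7.68% of 2162 cells in PyMT and 2.18% of 918 cells in WT, and the fibroblast-like shares 10.8% in PyMT and 3.43% in WT. The thinned PyMT shares of the 2 clusters had overlapping intervals (6.59 to 8.88 in LepR+-like and 7.69 to 14.5 in fibroblast-like cells). The RNA was unevenly spread among the cells that had it. In PyMT, 100 LepR+-like cells (4.46%) had 5 or more Il6 UMIs, and the highest had 47. In WT, 7 such cells (0.716%) reached 5 UMIs, and the highest had 13. The 10 richest LepR+-like cells held 21.03% of the cluster's Il6 UMIs in PyMT and 62.7% in WT, and the 10 richest fibroblast-like cells 58.8% in PyMT and 58.1% in WT. The WT levels of both clusters and the PyMT level of fibroblast-like cells thus rest on few cells.

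Lif was near the detection limit in all stromal clusters. LepR+-like cells had 37 UMIs in PyMT and 11 in WT (3.53 and 2.97 CPM, log2 ratio 0.25, -0.75 to 1.37), no cluster exceeded 7.97 CPM, and both endothelial-like clusters had 0 UMIs in both libraries.

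Il6ra RNA was found mainly in fibroblast-like cells. It was at 53.5 CPM in PyMT and 34.6 CPM in WT fibroblast-like cells (111 and 114 UMIs, log2 ratio 0.63, 0.24 to 1.02), and at 20.6 CPM in PyMT and 13.3 CPM in WT tendon-like cells (0.64, -0.10 to 1.39). LepR+-like cells had 1.72 CPM in PyMT and 1.35 CPM in WT, from 18 and 5 UMIs. Both endothelial-like clusters had 0 UMIs. By the limit of 3 counts this allows up to 6.62 CPM in PyMT and 17.8 CPM in WT sinusoidal cells, and up to 29.7 CPM in PyMT and 25.7 CPM in WT capillary cells. Of these limits that of PyMT sinusoidal cells alone lay below the tendon-like level of its library. Osteolineage-like cells had 0 in PyMT and 1 in WT. A UMI was found in 23.1% of PyMT and 15.7% of WT fibroblast-like cells (median depths 5206 and 5655 UMIs). In LepR+-like cells the shares were 0.714% in PyMT and 0.512% in WT, and 0 of 120 PyMT sinusoidal cells (median 3549.5 UMIs) had one, where 3 counts are 2.5% of the cells. With cells thinned to 1500 UMIs the fibroblast-like shares were 5.81% in PyMT and 5.23% in WT. Over all stromal cells the order was the opposite of that within fibroblast-like cells, the cluster whose ratio had an interval that left out 0. It was at 10.7 CPM in PyMT and 14.6 CPM in WT (log2 ratio -0.45, -0.78 to -0.12), beside the smaller share of fibroblast-like cells in the PyMT library given above.

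Osmr was found in every cluster, and in LepR+-like cells it was at 252 CPM in PyMT and 121 CPM in WT (log2 ratio 1.06, 0.92 to 1.21). A UMI was found in 58.1% of these cells in PyMT and 30.6% in WT, and after thinning in 29.4% in PyMT and 16.6% in WT. Fibroblast-like cells had 121 CPM in PyMT and 71.7 CPM in WT (0.76, 0.50 to 1.02), and osteolineage-like cells 43.3 CPM in PyMT and 17.3 CPM in WT (1.32, 0.33 to 2.40). In the other clusters the interval of the ratio held 0. There the levels were 74.1 CPM in PyMT and 63.1 CPM in WT tendon-like cells, 324 CPM in PyMT and 243 CPM in WT sinusoidal cells, and 297 CPM in PyMT and 231 CPM in WT capillary cells. In WT the endothelial-like levels were above those of all other clusters, while in PyMT the interval of the capillary cells (200.4 to 424 CPM) held the LepR+-like level.

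Lifr was highest in osteolineage-like cells, at 1489 CPM in PyMT and 961 CPM in WT (log2 ratio 0.63, 0.49 to 0.77), and in LepR+-like cells, at 1053 CPM in PyMT and 722 CPM in WT (0.55, 0.48 to 0.61). Tendon-like cells had 133 CPM in PyMT and 82.3 CPM in WT (0.69, 0.40 to 0.98), and fibroblast-like cells 104 CPM in PyMT and 62.5 CPM in WT (0.73, 0.45 to 1.01). In endothelial-like cells the interval held 0, at 289 CPM in PyMT and 255 CPM in WT sinusoidal cells and 535 CPM in PyMT and 420 CPM in WT capillary cells.

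Il6st was several times higher in sinusoidal endothelial-like cells than in any other cluster, at 1706 CPM in PyMT and 2655 CPM in WT. There the PyMT level was the lower one (log2 ratio -0.64, -0.81 to -0.47), and a UMI was found in 88.3% of PyMT and 98.2% of WT cells, or in 78.4% and 93.8% after thinning. In LepR+-like cells it was at 204 CPM in PyMT and 194 CPM in WT (0.07, -0.05 to 0.19), in tendon-like cells at 211 CPM in PyMT and 183 CPM in WT, and in fibroblast-like cells at 279 CPM in PyMT and 261 CPM in WT. Capillary cells had 267 CPM in PyMT and 163 CPM in WT, and osteolineage-like cells 85.0 CPM in PyMT and 83.7 CPM in WT. In these 5 clusters every interval of the ratio held 0.

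A gene was called in a cluster where its log2 ratio was past 1 in size with an interval that leaves out 0, among genes with at least 20 UMIs over both libraries. By this rule Il6 and Osmr were called higher among the 6 family genes in LepR+-like cells, where 5.42% of 12617 genes were called (3.27% higher, 2.16% lower). Il6 was called higher among 5 family genes with enough UMIs in tendon-like cells (5.88% of all genes called, 4.81% higher) and among 5 in fibroblast-like cells (3.9% called, 2.72% higher). Osmr was called higher among 3 in osteolineage-like cells (7.63% called, 6.41% higher), and of 3 each in sinusoidal (9.45% called) and capillary cells (8.3% called) none was called.

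Since each receptor needs both chains, cells with a UMI of both genes were counted. Il6ra and Il6st were found together in 0.446% of PyMT and 0.205% of WT LepR+-like cells, but in 19.4% of PyMT and 12.9% of WT fibroblast-like cells. Detection of the 2 genes independently of each other would give 0.383% in PyMT and 0.232% in WT LepR+-like cells. In fibroblast-like cells it would give 16.6% in PyMT and 11.3% in WT. In LepR+-like cells Osmr and Il6st were found together in 34.2% of PyMT and 16.5% of WT cells, and Lifr and Il6st in 48.7% of PyMT and 36.1% of WT cells. Independent detection of the pair would give 31.2% in PyMT and 13.9% in WT for Osmr and Il6st, and 46.04% in PyMT and 34.02% in WT for Lifr and Il6st. These shares depend on the depth per cell.

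**Figure D2:**
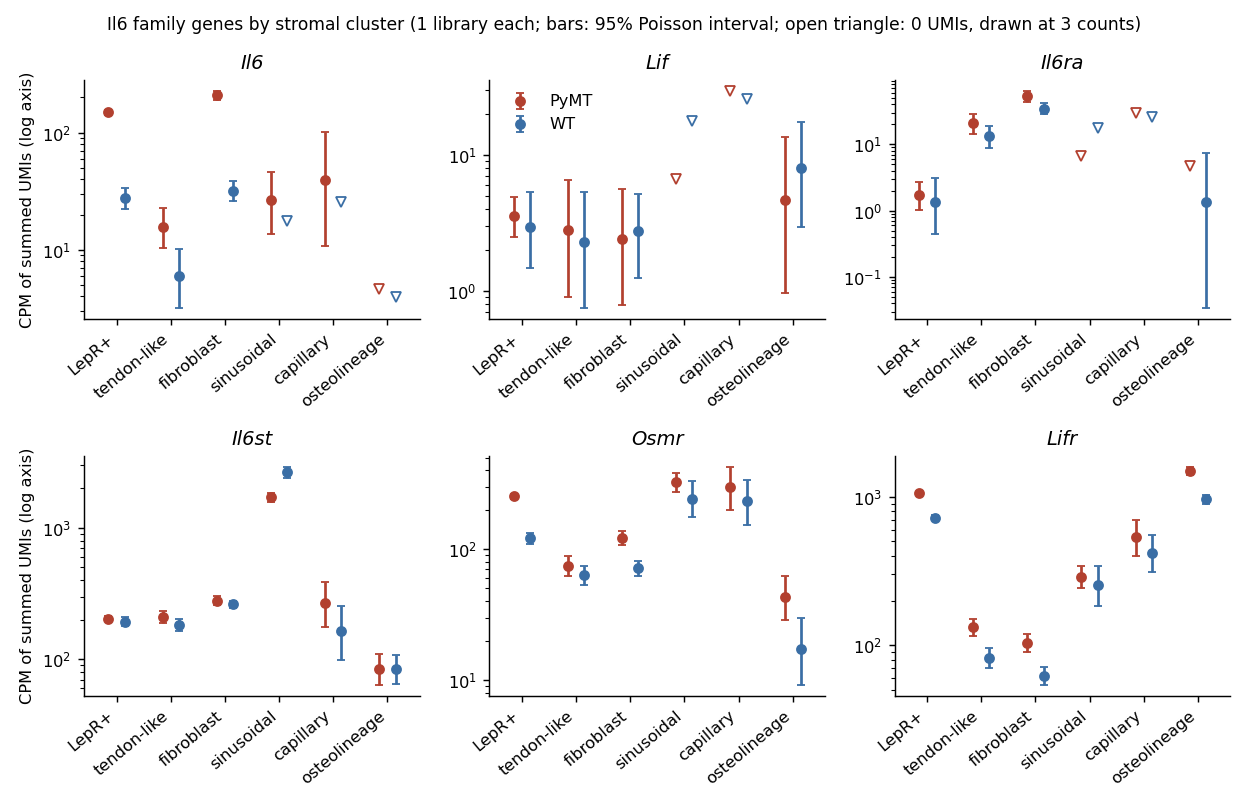
CPM of summed UMIs (vertical axes, log scale) of the 6 genes in the 6 stromal clusters, PyMT left of WT, 1 library each, with 95% Poisson intervals; open triangles mark clusters with 0 UMIs, drawn at 3 counts. Il6 is highest in LepR+-like cells (149 CPM in PyMT, 27.5 CPM in WT) and fibroblast-like cells (208 CPM in PyMT, 31.9 CPM in WT), Il6ra in fibroblast-like cells and Il6st in sinusoidal cells.

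The libraries differed in immediate-early RNA, which rises within minutes of many stimuli and also during tissue dissociation. The 14 immediate-early genes made up a median of 5.93% of the UMIs of a LepR+-like cell in PyMT and 3.47% in WT, and of a fibroblast-like cell 2.69% in PyMT and 1.29% in WT. The 8 heat shock genes made up a median of 0.529% in PyMT and 0.275% in WT LepR+-like cells. With 1 library per genotype, genotype and handling of the library cannot be told apart. Il6 was therefore also given within quartiles of the immediate-early share, which in LepR+-like cells were bounded at 2.52%, 5.17% and 7.59%.

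In the lowest quartile of LepR+-like cells Il6 was at 9.19 CPM in PyMT and 7.29 CPM in WT (log2 ratio 0.33, -0.83 to 1.56). In the second it was at 112 CPM in PyMT and 23.7 CPM in WT (2.24, 1.70 to 2.83), in the third at 231 CPM in PyMT and 62.9 CPM in WT (1.88, 1.42 to 2.37), and in the highest at 184 CPM in PyMT and 81.4 CPM in WT (1.17, 0.52 to 1.92). Il6 was thus low in both libraries where immediate-early RNA was low (18 UMIs in PyMT and 11 in WT), and higher in PyMT in the other quartiles. The libraries still differed within quartiles. In the second the median heat shock share was 0.430% in PyMT and 0.285% in WT, in the third 0.550% and 0.366%, and in the highest 0.846% and 0.441%. The median immediate-early share of the highest quartile was 9.53% in PyMT and 8.97% in WT. The part of these differences in the Il6 ratios was not tested. The lowest quartile held 19.7% of PyMT and 37.3% of WT LepR+-like cells, and the highest 32.2% of PyMT and 8.60% of WT cells. With the quartiles weighted equally, Il6 was at 134 CPM in PyMT and 43.8 CPM in WT, and the log2 ratio was 1.61 in place of 2.44.

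The same division of fibroblast-like cells, chosen after seeing the data, gave 12.5 CPM in PyMT and 14.03 CPM in WT in the lowest quartile (-0.17, -2.60 to 1.65) and 14.6 CPM in PyMT and 12.9 CPM in WT in the second (0.18, -1.66 to 1.76). In the third quartile Il6 was at 178 CPM in PyMT and 41.0 CPM in WT (2.12, 1.54 to 2.73), and in the highest at 345 CPM in PyMT and 111 CPM in WT (1.63, 1.17 to 2.13). The libraries were therefore apart in the upper quartiles, and in the lower quartiles the intervals held 0. With equal weights the log2 ratio was 1.62. Here, too, the libraries differed within the highest quartile, where the median immediate-early share was 4.39% in PyMT and 3.71% in WT.

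Osmr followed another course in LepR+-like cells. In the lowest quartile it was at 272 CPM in PyMT and 93.4 CPM in WT (log2 ratio 1.54, 1.27 to 1.82), and in the highest at 279 CPM in PyMT and 189 CPM in WT (0.56, 0.13 to 1.04). The PyMT library was above the WT library in all 4 quartiles, by the most where immediate-early RNA was low, and the log2 ratio was 0.87 with equal weights. In fibroblast-like cells the equal-weight ratio of Osmr was 0.32. There the interval of the ratio held 0 in every quartile, though the lowest rested on 13 UMIs in PyMT and 48 in WT. The equal-weight ratio of Lifr in LepR+-like cells was 0.72.

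**Figure D3:**
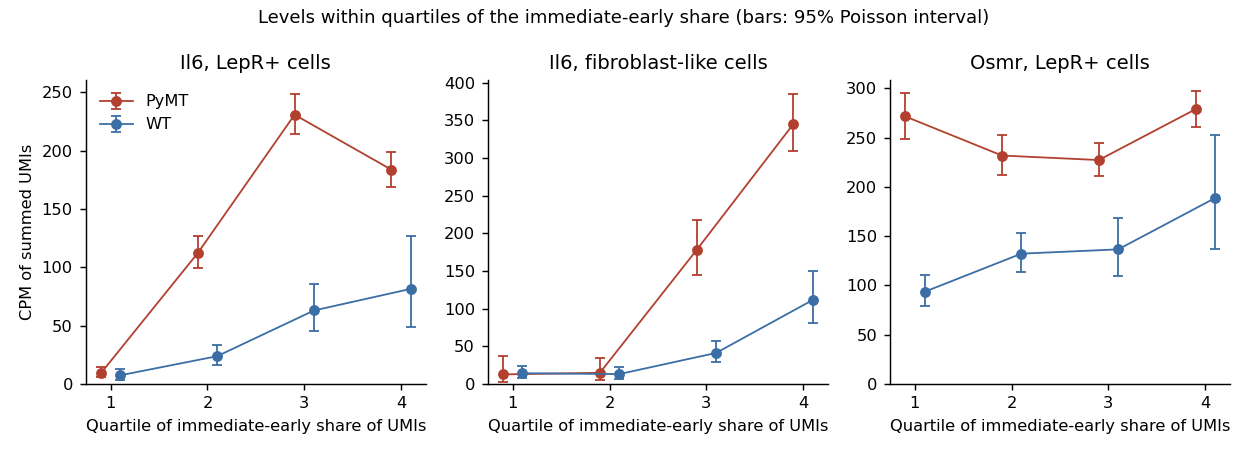
CPM of summed UMIs (vertical axes) of Il6 in LepR+-like and fibroblast-like cells and of Osmr in LepR+-like cells, by quartile of the immediate-early share of UMIs (horizontal axes), PyMT and WT with 95% Poisson intervals. In LepR+-like cells Il6 is at 9.19 CPM in PyMT and 7.29 CPM in WT in the lowest quartile, where Osmr is at 272 CPM in PyMT and 93.4 CPM in WT.

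The genes most like each family gene across the stroma were taken by Pearson correlation of log2(CPM + 10) over the 12 combinations of cluster and library, among 9823 genes with at least 200 UMIs. The profiles share 2 libraries and their depths, so the values only describe. For Il6 they were the nuclear receptor gene Nr4a3 (r = 0.89), the metalloproteinase gene Mmp19 (0.87) and Rhbdf1 (0.86), and no gene reached 0.9. For Il6ra they were the glycogen phosphorylase gene Pygl (0.99), the enkephalin gene Penk (0.99) and AW551984 (0.99), and 127 genes reached 0.9. For Osmr they were Zfp263 (0.99), Sema4c (0.98) and Hnrnph1 (0.98), for Il6st Sumo3 (0.99), Mgat4b (0.98) and Ap1b1 (0.97), and for Lifr Limch1 (0.93), Rgs3 (0.92) and Tsc22d1 (0.92).

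The other ligands and receptors of the family were little represented in MSC. Of 14 genes 8 could be tested in bulk, and edgeR and DESeq2 each called 0 of them (1 at an unadjusted p under 0.05 by either tool), with a median log2 difference of 0.14. Among LepR+-like cells 0 of the 6 with enough UMIs were called (median 0.43, beside 0.08 over all genes). The interleukin 11 receptor gene Il11ra1 was at 29.3 CPM in PyMT and 42.1 CPM in WT (-0.52, -0.81 to -0.24), and the cytokine gene Clcf1 at 9.65 CPM in PyMT and 5.94 CPM in WT (0.70, 0.02 to 1.44). The log2 ratios of Il11 (22 UMIs in PyMT, 3 in WT, 1.38, -0.36 to 3.76), the receptor gene Cntfr (0.48, -0.26 to 1.29) and the cytokine gene Ctf1 (0.38, -0.97 to 1.97) had intervals that held 0. Osm, the gene of oncostatin M, had 1 UMI in PyMT and 0 in WT LepR+-like cells, and averaged 1.46 CPM in Py230 and 1.64 CPM in tumour-free bulk libraries.

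Of 22 transducers and regulators of the pathway, 1 rose and 2 fell in bulk (median -0.02). Socs3, the feedback inhibitor that binds gp130 and blocks JAK kinases, was at 1447, 1730, 1977 and 1710 CPM in Py230 libraries 1 to 4, and at 3320, 3204, 2530 and 2464 CPM in tumour-free libraries 1 to 4. All Py230 libraries lay below all tumour-free libraries, and the log2 difference was -0.75 (SE 0.13, edgeR adjusted p = 0.00516). Its relative Socs1, an inhibitor of JAK kinases, was at 36.0, 49.9, 64.1 and 41.2 CPM in Py230 libraries 1 to 4, and at 132, 97.1, 99.2 and 85.6 CPM in tumour-free libraries 1 to 4. These ranges did not overlap either (-1.10, SE 0.18, edgeR adjusted p = 0.00389), and both genes kept their call in 12 of 12 alternatives. The adaptor gene Gab1 was at 172 ± 27.2 CPM in Py230 and 121 ± 5.23 CPM in tumour-free libraries (SD, n = 4 each; 0.51, edgeR adjusted p = 0.0212), a call kept by 3 of 12 alternatives.

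Within LepR+-like cells 0 of the 21 transducers and regulators with enough UMIs were called, and their median log2 ratio of 0.08 was that of all genes. Socs3 was at 1670 CPM in PyMT and 1689 CPM in WT (-0.02, -0.06 to 0.03), and Socs1 at 122 CPM in PyMT and 134 CPM in WT (-0.13, -0.28 to 0.02). The ratios of largest size above 0 were those of the phosphatase gene Ptpn2 (0.85), of Stat3 (0.60, 252 CPM in PyMT and 167 CPM in WT) and of the kinase genes Jak2 (0.41) and Jak1 (0.38). Those below 0 were led by Pias3 (-0.44), the sheddase gene Adam17 (-0.39), Tyk2 (-0.38) and Stat5a (-0.30).

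Of 24 genes that STAT3 is known to induce in various cells, 4 rose and 6 fell in bulk, where 1.99% of all genes were called higher and 2.74% lower. Their median log2 difference was -0.06, beside 0.04 over all genes. Lrg1, which encodes a secreted glycoprotein, was at 13.6 ± 6.29 CPM in Py230 and 2.28 ± 0.528 CPM in tumour-free libraries (2.58, SE 0.35, edgeR adjusted p = 0.00112). The interleukin 1 receptor gene Il1r1 (543 ± 36.8 CPM in Py230, 279 ± 65.6 CPM in tumour-free) rose by 0.96, and the vascular growth factor gene Vegfa (1703 ± 369 CPM in Py230, 920 ± 95.1 CPM in tumour-free) by 0.89. The protease inhibitor gene Serpina3n was at 299, 69.5, 38.6 and 41.0 CPM in Py230 libraries and 1.89 to 6.18 CPM in tumour-free libraries (4.93, edgeR adjusted p = 0.0472), a call kept by 2 of 12 alternatives. Besides Socs3, the genes that fell were the interferon regulatory factor gene Irf1 (547 ± 152 CPM in Py230, 1334 ± 124 CPM in tumour-free; -1.29), Serpina3g (-0.62), the kinase gene Pim1 (-0.54) and the transcription factor genes Cebpd (-0.52) and Cebpb (-0.45). The last of these was named after its value was seen, and the Cebpd and Cebpb calls were kept by 4 and 3 of 12 alternatives.

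Of 23 STAT3 response genes with enough UMIs in LepR+-like cells, 5 were called higher and 0 lower, with a median log2 ratio of 0.70 beside 0.08 over all genes. The ratios of largest size were those of Serpina3n (22.9 CPM in PyMT and 2.97 CPM in WT, 2.95, 2.08 to 3.97), Lrg1 (43.2 CPM in PyMT and 12.7 CPM in WT, 1.77, 1.33 to 2.23), Vegfa (832 CPM in PyMT and 378 CPM in WT, 1.14) and the NF-kB partner gene Bcl3 (76.8 CPM in PyMT and 37.5 CPM in WT, 1.03). Irf1 was at 454 CPM in PyMT and 503 CPM in WT (-0.15, -0.23 to -0.07). In fibroblast-like cells 8 of 22 were called higher and 0 lower (median 0.83), where 3.9% of all genes were called. The list shares Fos and Junb with the immediate-early list, which differed between the libraries as described above, and the part of that difference was not tested.

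The remaining lists were described for the stress and NF-kB signals that also act on Il6. Of 14 immediate-early genes edgeR and DESeq2 each called 0 in bulk (4 at an unadjusted p under 0.05 by either tool; median 0.11). The same list had 4 genes called higher in LepR+-like cells (median 0.79), namely Atf3 (614 CPM in PyMT and 196 CPM in WT, 1.65), Nr4a1 (1.49), Egr3 (1.33) and Egr1 (1.06). Of 8 heat shock genes, Hspa1a (241 ± 26.4 CPM in Py230 and 116 ± 44.8 CPM in tumour-free libraries, 1.05, edgeR adjusted p = 0.0217) and Hspa1b (1.35, edgeR adjusted p = 0.0263) rose in bulk, calls that 6 and 7 of 12 alternatives kept. Called higher in LepR+-like cells were Hspa1a (1.43), Dnajb1 (1.36), Hsp90aa1 (1.30) and Hspa1b (1.21), with a list median of 1.06. Of 10 NF-kB feedback genes edgeR called 0 higher and 1 lower in bulk, and DESeq2 2 higher and 2 lower. By edgeR the chemokine gene Ccl7 fell (23.0 ± 8.13 CPM in Py230 and 42.0 ± 7.58 CPM in tumour-free libraries, -0.88, edgeR adjusted p = 0.0329), a call that 5 of 12 alternatives kept. DESeq2 also called the inhibitor gene Nfkbia (568 ± 29.2 CPM in Py230 and 432 ± 55.7 CPM in tumour-free libraries, 0.38, DESeq2 adjusted p = 0.00787) and Nfkb2 (0.37, DESeq2 adjusted p = 0.0245) higher and the chemokine gene Cxcl1 (-0.51, DESeq2 adjusted p = 0.0321) lower, 3 genes named after their values were seen. Among LepR+-like cells 3 of the 10 were called higher (median 0.92), Cxcl2 (23 UMIs in PyMT and 2 in WT, 2.02, 0.01 to 5.15), Birc3 (1.13) and Cxcl1 (1.07), and Nfkbiz, whose product takes part in Il6 induction, lay just under the limit (0.996).

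Macrophage and monocyte markers summed to 47.1 CPM in PyMT and 38.1 CPM in WT LepR+-like cells with C1qc of the 9 at 0, and to 23.1 CPM in PyMT and 10.3 CPM in WT fibroblast-like cells with Adgre1 at 0. In LepR+-like cells neutrophil markers summed to 57.1 CPM in PyMT and 38.3 CPM in WT, pericyte markers to 292 CPM in PyMT and 180.1 CPM in WT, osteolineage markers to 4933 CPM in PyMT and 7880 CPM in WT, and erythroid markers to 81.5 CPM in PyMT and 367 CPM in WT. In fibroblast-like cells neutrophil markers summed to 25.1 CPM in PyMT and 3.64 CPM in WT, and erythroid markers to 11.6 CPM in PyMT and 25.8 CPM in WT. LepR+ mesenchymal markers summed to 28353 CPM in PyMT and 32837 CPM in WT LepR+-like cells. In capillary cells they summed to 9317 CPM in PyMT and 8057 CPM in WT, and in sinusoidal cells to 2769 CPM in PyMT and 1749 CPM in WT. The part of such RNA from other cell types in the levels and ratios was not tested.

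In HSPC, Il6 itself was nearly absent, with 6 and 8 UMIs in PyMT mice 1 and 2 and 14 and 5 UMIs in WT mice 1 and 2, and it did not pass the filter on low counts. Of these UMIs 16 lay in cluster 6 and 9 in cluster 8, both megakaryocyte-erythroid-like, though cluster 6 was led by the basophil gene Prss34. Il6ra was at 29.2 and 29.4 normalised CPM in PyMT mice and 26.4 and 20.1 CPM in WT mice (log2 difference 0.32, SE 0.14, edgeR adjusted p = 0.2002). Il6st was at 15.7 and 14.5 CPM in PyMT mice and 12.02 and 10.7 CPM in WT mice (0.41, SE 0.13, edgeR adjusted p = 0.12005). Lifr was near 0, at 0.893 and 0.911 CPM in PyMT mice and 0.651 and 0.403 CPM in WT mice (0.73, SE 0.43, edgeR adjusted p = 0.345). The mice differed in cluster make-up, whose part in these whole-mouse levels was not tested. Granulocyte-monocyte-like cluster 5 held 685 of 3602 and 541 of 5608 cells of the PyMT mice, and 226 of 3422 and 39 of 2210 cells of the WT mice. Cluster 6, low in Il6ra and Il6st, held 256 and 349 of the PyMT and 386 and 186 of the WT cells. For all 3 receptor genes both PyMT mice lay above both WT mice, and ranges that did not overlap, in either direction, were found for 56% of all genes. Over all genes 1.4% were called, and edgeR and DESeq2 each called 0 of these 3 (2 and 1 at an unadjusted p under 0.05). With cells thinned to an equal depth of 3000 UMIs, edgeR called Il6st higher (0.65, adjusted p = 0.0285). Thinning left out the cells below that depth, 214 and 1467 cells of the PyMT mice and 102 and 42 cells of the WT mice. The sets of cells compared thus changed too.

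A UMI of Il6ra was found in 18.0% and 12.4% of cells of the PyMT mice and in 16.3% and 13.2% of cells of the WT mice, at median depths of 7149 and 4257 UMIs in PyMT and 6643.5 and 6767.5 UMIs in WT mice. In cluster 8, with few receptor UMIs, the shares were 7.69% and 0.645% in PyMT and 4.73% and 3.26% in WT mice, at medians of 7845 and 5754 UMIs in PyMT and 9005 and 10531.5 UMIs in WT mice. The Il6ra share over all cells was thus above that of cluster 8 in every mouse. With cells thinned to 3000 UMIs it was 8.06% and 7.44% in PyMT and 7.89% and 5.996% in WT mice, and the Il6st share was 3.90% and 4.03% in PyMT and 2.86% and 2.77% in WT mice. Both genes were found in 2.86% and 1.73% of cells of the PyMT mice and in 2.40% and 1.63% of cells of the WT mice.

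Receptor levels differed between HSPC clusters, which were made without the family genes but from the same cells, so the levels are a description. Il6ra was highest in cluster 3, lymphoid-primed-like and led by Dntt, at 38.0 and 48.6 CPM in PyMT and 58.8 and 44.7 CPM in WT mice (mean 47.5 ± 8.70 CPM; SD, n = 4 mice). Clusters 7 (33.1 ± 4.51 CPM, unnamed), 1 (31.2 ± 4.61 CPM, unnamed and led by the mitotic genes Ube2c and Nusap1), 5 (29.2 ± 3.24 CPM, granulocyte-monocyte-like) and 0 (28.1 ± 7.76 CPM, unnamed and led by Socs3 and Selp) followed and did not differ beyond their spread. The stem-like cluster 4 had 18.1 and 18.0 CPM in PyMT and 18.9 and 16.9 CPM in WT mice, and cluster 2, unnamed, had a like level (16.7 ± 1.01 CPM). The megakaryocyte-erythroid-like clusters 6 (9.71 ± 2.15 CPM) and 8 (4.73 ± 3.73 CPM) were low, as was cluster 9, of 87 cells (3.09 ± 3.92 CPM). Cluster 10 held 46 cells.

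Il6st, too, had its highest mean in cluster 3, at 22.5 ± 5.15 CPM, with 19.7 ± 3.92 CPM in cluster 1 and 16.1 ± 4.23 CPM in cluster 5 (SD, n = 4 mice), which did not separate beyond their spread. It was at 13.96 ± 1.53 CPM in cluster 7, 12.5 ± 2.15 CPM in the stem-like cluster, 8.54 ± 1.19 CPM in cluster 0 and 7.39 ± 2.53 CPM in cluster 2. The mean of cluster 0 was thus below that of the stem-like cluster for Il6st and above it for Il6ra. Il6st was low in the megakaryocyte-erythroid-like clusters, at 5.57 ± 0.999 and 3.90 ± 2.57 CPM in clusters 6 and 8. Lifr, which rested on 73 UMIs in all, had 27 of them in cluster 3 and 24 in cluster 1.

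**Figure D4:**
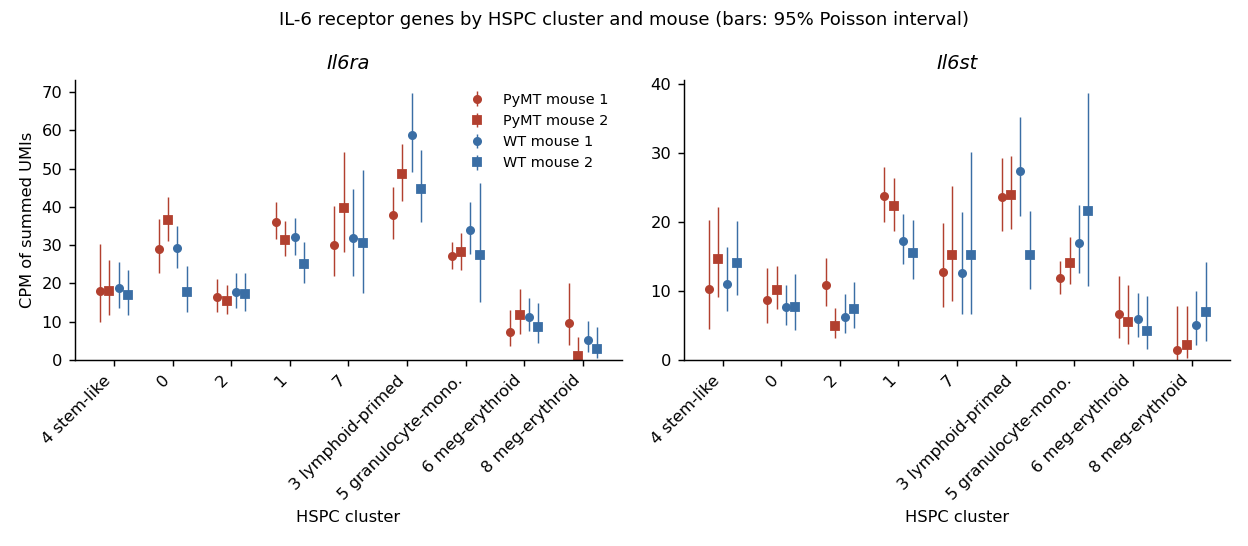
CPM of summed UMIs (vertical axes) of Il6ra and Il6st in the HSPC clusters of over 100 cells, with 1 point per mouse (PyMT mice 1 and 2, then WT mice 1 and 2) and 95% Poisson intervals. Il6ra is highest in the lymphoid-primed-like cluster (mean 47.5 CPM), lower in the stem-like cluster (16.9 to 18.9 CPM) and lowest in the megakaryocyte-erythroid-like clusters.

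The authors' cell cycle calls divided the cells of each mouse into phases. In phases G1, S and G2M, Il6st was at 13.98, 15.6 and 18.3 CPM in PyMT mouse 1, at 12.3, 15.3 and 18.5 CPM in PyMT mouse 2, at 10.8, 12.5 and 13.8 CPM in WT mouse 1 and at 9.75, 9.46 and 13.0 CPM in WT mouse 2. G2M lay above G1 in 4 of 4 mice (log2 difference 0.44, SE 0.09, edgeR adjusted p = 1.18e-04 with mouse as a term), in a comparison that called 52.7% of all genes. G2M cells were deeper than G1 cells (medians of 10471 and 5962 UMIs in PyMT mouse 1). With cells thinned to 3000 UMIs the difference was 0.15 (edgeR adjusted p = 0.549). Thinning also left out the shallower cells and left fewer counts, so the part of depth in this change was not tested. S against G1 called 40.2% of all genes but not Il6st (0.19, edgeR adjusted p = 0.281).

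Il6ra, in phases G1, S and G2M, was at 25.9, 32.8 and 32.5 CPM in PyMT mouse 1, at 28.9, 26.4 and 28.6 CPM in PyMT mouse 2, at 26.5, 19.98 and 26.2 CPM in WT mouse 1 and at 21.6, 15.3 and 17.6 CPM in WT mouse 2. The mice went different ways, and neither S (-0.08, edgeR adjusted p = 0.601) nor G2M (0.04, edgeR adjusted p = 0.731) was called against G1. Terms for a PyMT minus WT difference that changes with phase were called for 0.177% of genes in S and 0.223% in G2M. They were called for neither receptor gene, the largest being that of Il6ra in S (0.56, SE 0.22, edgeR unadjusted p = 0.0138, adjusted p = 0.434).

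Of the 21 STAT3 response genes tested in HSPC, 7 rose in PyMT mice, 0 fell and 14 did not pass the test, where 0.85% of all genes were called higher and 0.553% lower, and their median log2 difference was 0.70 beside -0.01 over all genes. The HSPC genes named here and in the next paragraph were chosen after their values were seen. Socs3 was at 61.6 and 51.9 CPM in PyMT mice and at 10.4 and 7.60 CPM in WT mice (2.64, SE 0.16, edgeR adjusted p = 5.41e-04). The other genes that rose were the transcription factor gene Cebpb (188 and 144 CPM in PyMT, 71.0 and 56.7 CPM in WT mice, 1.38), Junb (290 and 391 CPM in PyMT, 147 and 167 CPM in WT mice, 1.12), Bcl3 (1.06), the interleukin 4 receptor gene Il4ra (0.77), Pim1 (0.76) and Serpina3g (0.68). Socs3, Junb, Cebpb and Pim1 kept their calls in 10 of 10 alternatives. Socs3 also led cluster 0, which held 567 of 3602 and 1340 of 5608 cells of the PyMT mice. Of the WT mice it held 671 of 3422 and 339 of 2210 cells, and these shares overlapped between the genotypes.

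Of the 22 transducers and regulators, Socs3 and Socs1 (17.3 and 18.7 CPM in PyMT, 7.12 and 8.41 CPM in WT mice, 1.22, edgeR adjusted p = 0.0130) rose and 0 fell by edgeR (median -0.03). The transducer gene Stat5a (48.9 and 48.9 CPM in PyMT, 65.6 and 67.6 CPM in WT mice, -0.44, edgeR adjusted p = 0.0544) and the kinase gene Jak2 (8.33 and 9.62 CPM in PyMT, 13.7 and 14.5 CPM in WT mice, -0.65, edgeR adjusted p = 0.0597) missed the threshold. Both were called lower by DESeq2, in cells thinned to equal depth and with either PyMT mouse left out, and Jak2 also with WT mouse 1 left out. Of 8 other family genes edgeR and DESeq2 each called 0 (3 and 1 at an unadjusted p under 0.05; median -0.05). Osm was at 12.8 and 13.1 CPM in PyMT mice and at 7.81 and 10.2 CPM in WT mice (0.53, edgeR adjusted p = 0.101), so its RNA was present in HSPC, while LepR+-like stromal cells had 1 UMI in all. Of 11 immediate-early genes edgeR called Junb higher and DESeq2 Junb, Jund (0.44) and Egr1 (0.47), and all 11 were above 0 (median 0.43). Of 8 heat shock genes edgeR called 0 and DESeq2 4 (4 and 5 at an unadjusted p under 0.05; median 0.48), and of 8 NF-kB genes each tool called 0 (1 at an unadjusted p under 0.05 by either; median 0.01).

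Neutrophil markers, 6 of 7 in the HSPC table, summed to 6058 and 4744 CPM in PyMT and 4040 and 1695 CPM in WT mice. Macrophage and monocyte markers summed to 621 and 634 CPM in PyMT and 654 and 581 CPM in WT mice, and immediate-early genes to 2027 and 2265 CPM in PyMT and 1535 and 2009 CPM in WT mice. Heat shock genes summed to 9072 and 6414 CPM in PyMT and 6640 and 5860 CPM in WT mice, so PyMT mouse 2 lay below WT mouse 1. Neutrophil and immediate-early sums were higher in both PyMT mice than in both WT mice, and their part in the STAT3 response genes was not tested.

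Socs3 thus had log2 values of -0.75 in bulk MSC from Py230-bearing mice, -0.02 in LepR+-like cells of the PyMT library and 2.64 in PyMT HSPC. The tumour models and assays differ between these data sets, and the differences between them were not tested.

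**Figure D5:**
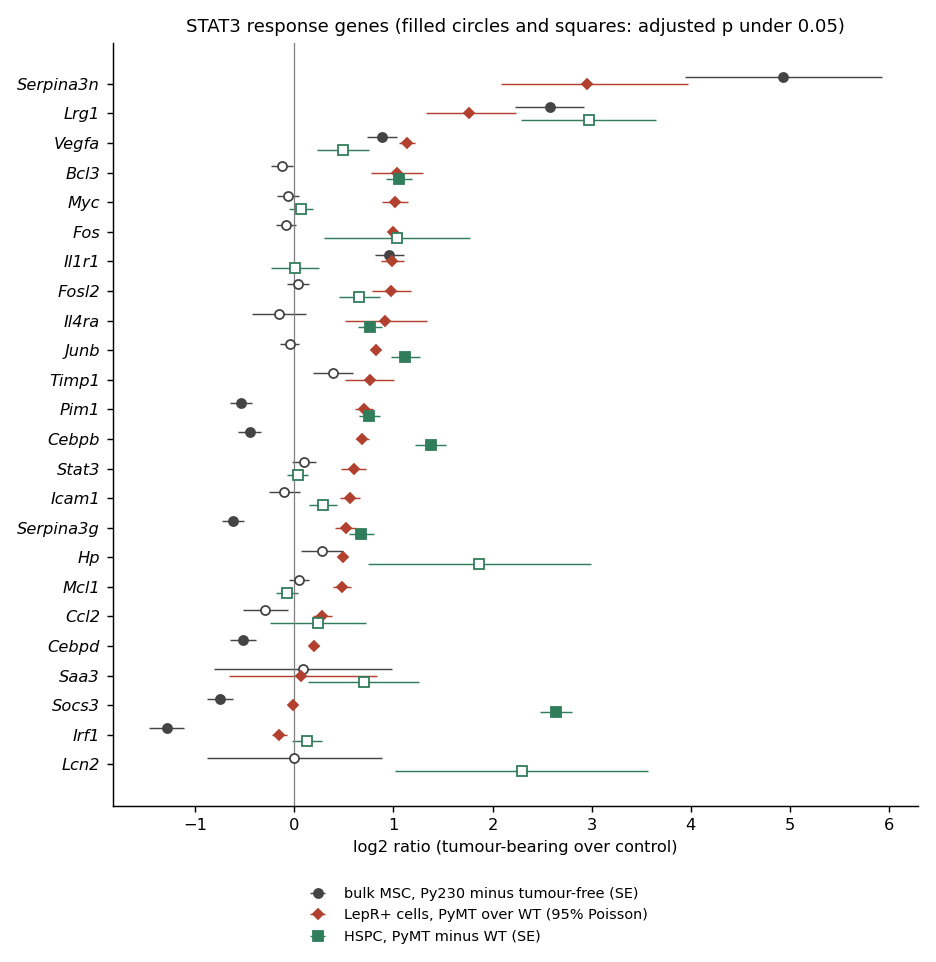
Log2 ratios (horizontal axis) of the STAT3 response genes in bulk MSC (circles, Py230 minus tumour-free, ± SE), LepR+-like stromal cells (diamonds, PyMT over WT, 95% Poisson interval, no test) and HSPC (squares, PyMT minus WT, ± SE); filled circles and squares have an adjusted p under 0.05. Socs3 is at -0.75 in bulk MSC, -0.02 in LepR+-like cells and 2.64 in HSPC. Lrg1 is above 0 in all 3, but in HSPC it was not called and was low (3.61 and 1.71 CPM in PyMT, 0.536 and 0.0576 CPM in WT mice).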

How the data were processed

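Bulk read counts per gene and single-cell UMI counts were used as deposited by the authors. Per the submitters' processing notes, Trim Galore, STAR 2.5.3a, Cell Ranger 6.0.0 and mm10 were used; no source used here names the counter or strand setting. Per the labels' protocols the bulk kit is strand-specific, and the droplet chemistry is named differently in different places. The mitochondrial fraction per cell was deposited by the authors, as were the stromal cluster numbers and the HSPC phases. The stromal filter was a minimum of 500 genes and a mitochondrial share below 10%. The tests used edgeR 4.0.16 under R 4.3.3, by its robust quasi-likelihood test after TMM scaling and filterByExpr, with p-values adjusted over all genes by Benjamini-Hochberg and a threshold of 0.05, with DESeq2 1.42.0 as an alternative, after checks on simulated data. HSPC UMIs were summed per mouse, or per mouse and phase with mouse as a term. HSPC were clustered with scanpy 1.11.5 (2000 variable genes without the family genes, 30 components, 20 neighbours, resolution 0.6). No doublet caller was run; leaving out the 5% of stromal cells with most UMIs was an alternative. Promoter sequences are from RefSeq (GRCm38.p6), where all 6 genes matched.

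Genes were named by rule: the 6 family genes; list genes past the threshold in bulk, at most 5 per list and direction by smallest p; in LepR+-like cells at most 4 per list and direction by size of the log2 ratio, with at least 20 UMIs; and the 3 genes most like each family gene with at least 100 UMIs. Genes and lists were chosen with earlier results of these data known. Alternatives were another tool, no filter on low counts, each library left out, a replicate block, thinned cells and single phases.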

Additional observations from a re-analysis of the deposited data

Results flagged for a closer look

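In 3 of 42 groups of 4 bulk libraries examined, 1 library stood apart from the others by Dixon's criterion, which chance meets in about 1 of 20 groups. For Serpina3n, Py230 library 1 was at 299 CPM and the other Py230 libraries at 38.6 to 69.5 CPM. For Cebpd, tumour-free library 1 was at 1122 CPM and the other tumour-free libraries at 877 to 907 CPM. For Hspa1a, tumour-free library 4 was at 183 CPM and the others at 84.0 to 100.2 CPM.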

How the results depend on the processing

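In bulk, 324 genes were called higher and 447 lower. Leaving out 1 library gave 134 to 304 higher and 230 to 426 lower, with the fewest higher without tumour-free library 2 and the fewest lower without tumour-free library 1. The replicate block gave 176 higher and 237 lower. Same-numbered libraries correlated at -0.39, -0.13, -0.20 and 0.02, and libraries of unlike number at -0.48 to 0.52. These values gave no sign that the numbers pair the libraries, but with so few libraries they cannot exclude it. Without the library with fewest genes in each group, chosen after seeing the data, 171 were higher. The log2 difference of Il6 without the filter was -0.54 (edgeR adjusted p = 0.0161). Il6ra ranged from -0.15, without Py230 library 1, to 0.89. Il6st was -0.050 without the filter, -0.030 without the libraries with fewest genes, and ranged from -0.039, without Py230 library 3, to 0.030 with 1 library left out, below 0 also without tumour-free library 1 (-0.0056) or 2 (-0.029). The osteolineage marker sum without Col1a1 differed by -821 CPM (exact permutation p = 0.114).

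Between HSPC genotypes 100 genes were called higher and 65 lower. Leaving out 1 mouse gave 100 to 1135 higher and 84 to 797 lower, with the most without PyMT mouse 2. DESeq2 gave 466 and 159, S cells alone 26 and 6, and thinned cells 694 and 396. Il6st was then 0.65 (edgeR adjusted p = 0.0285). No paired analysis was possible between genotypes because the mouse numbers follow accession order. For S against G1, 2308 genes were higher and 2019 lower, against 782 and 696 with no replicate block and 1356 and 980 in thinned cells. For G2M against G1 these were 2696 and 2971, against 1051 and 1237, and 1670 and 1863. Il6st in G2M was 0.44 with no block (edgeR adjusted p = 0.0582) and 0.15 thinned (0.549), and in S -0.36 thinned. With 1 mouse left out, Il6ra in S ranged from -0.28 to 0.032, the highest without WT mouse 1, and in G2M from -0.065, without PyMT mouse 1, to 0.12; thinned, it was -0.088 in G2M.

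The log2 ratio of Il6 in LepR+-like cells was 2.12 by mean CPM per cell and 1.61 with equal quartile weights; thinned shares were 7.68% in PyMT and 2.18% in WT. The cause of these changes was not tested.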
